A study of Schizosaccharomyces pombe with 4 samples.

Results

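met26 (SPAC9.09) encodes the methionine synthase of fission yeast, Schizosaccharomyces pombe, and its mRNA was among those recovered most often with the post-transcriptional regulator Mkt1. It was followed here as every cDNA on the plus strand of chromosome I that overlapped the gene and carried its identifier, alone or with that of another gene. There were 2595 such cDNAs of 61252 in all, 1381 and 1197 in the Mkt1-HTP libraries and 10 and 7 in the control libraries. The gene was chosen for these numbers, so the difference in counts between the groups is described and not tested.

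Methionine synthase transfers a methyl group from a methylated folate to homocysteine and so makes methionine. Methionine is then activated to S-adenosylmethionine, the methyl donor of the cell, and after the methyl group has been used the remainder is returned to homocysteine. Folate carries the single carbons that serine and glycine supply. The enzyme is thus the point where the methionine cycle meets 1-carbon metabolism.

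CRAC (crosslinking and analysis of cDNAs) irradiates living cells with UV light, purifies a tagged protein with the RNA crosslinked to it and sequences that RNA as cDNA. Mkt1-HTP cells were h+ and carried the genomic allele mkt1-HTP-KanR, whose tag joins histidines, a TEV protease site and protein A. Control cells were h+ and untagged, and give the background of the purification. Both strains shared otr1R(Sph1):ade6+, ade6-210, leu1-32 and ura4D18, grew at 32 °C to exponential phase in PMG medium without tryptophan, and were irradiated for 42.5 s. There were 2 libraries of each, which the series calls biological replicates, and a Mkt1-HTP library and a control library of the same number shared a sequencing index. The labels do not say whether the 2 libraries of a strain came from separate clones.

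In Mkt1-HTP 24468 and 26899 distinct cDNAs were found, against 1743 and 8142 from control cells, so Mkt1-HTP was 14.04 times as deep in number 1 and 3.30 times as deep in number 2. Messenger RNA made up 48.4% and 41.7% of the cDNAs in Mkt1-HTP, against 9.01% and 5.86% in control libraries, where rRNA held 82.7% and 85.5%. All intervals below are 95% intervals and cover counting error only. A Wilson interval is given for a share and an exact Poisson interval for a count.

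The met26 gene lies at chrI:1478398-1481172 (ASM294v2 coordinates, plus strand) and has a single exon of 2775 nt. Its 5′ UTR is 229 nt, its coding sequence 2295 nt from 1478627 to 1480921, and its 3′ UTR 251 nt. The 3′ UTR is 9.05% of the mRNA. The last 90 nt of the gene, from 1481083, lie opposite the 3′ end of SPNCRNA.743, a noncoding RNA annotated on the minus strand from 1481083 to 1482570.

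The bases deleted most often in cDNAs are the candidates for crosslinked bases in CRAC, and 4 stretches of 30 nt that hold the bases described below are printed here. They are in DNA letters, 5′ to 3′ in the sense of the mRNA, read from the RefSeq copy of the chromosome. Site A (chrI:1481075-1481104, plus strand) lies 154 to 183 nt after the coding sequence, site B (chrI:1481016-1481045) 95 to 124 nt after it, site C (chrI:1480896-1480925) across its end, and site D (chrI:1480222-1480251) within it. Capitals mark the deleted bases named in the text and, in site C, also the stop codon TAA. Where a deleted base lies in a run of equal letters, the first letter is marked, and which was lost cannot be told.
site A: aactgaGggtaacaagttgATataTtttgc
site B: taatgaaacgaatgTttgaaatgaaaatgt
site C: gtgaagctcgtgagcAatacgctTAAgtca
site D: cattgtcggtgatgTttatcgtcccgcccc

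Sites A and B lie in the 3′ UTR, where most met26 cDNAs were found. The 3′ UTR held 38.2% U, against a median of 39.8% over the first 251 nt after the stop codon of 2487 mRNAs with a 3′ UTR at least that long. It held no AATAAA on the sense strand, a motif found in 26.2% of those windows, and no TGTANATA, found in 6.43%. The letters TATATT, part of site A, occurred once, at 174 nt, and 30.3% of the windows held them.

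The first question was how often the met26 mRNA was recovered with Mkt1 and without the tag. The Mkt1-HTP libraries had 1381 cDNAs (interval 1309 to 1456) and 1197 (1130 to 1267). The control libraries had 10 (4.80 to 18.4) and 7 (2.81 to 14.4). Scaled to 1000000 cDNAs of the library (CPM), met26 stood at 56441 and 44500 CPM in Mkt1-HTP, against 5737 and 860 CPM in control libraries. The higher control value came from the shallowest library.

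The mean level was 50470 ± 8444 CPM in Mkt1-HTP and 3298 ± 3449 CPM in control libraries (SD, n = 2 each), a ratio of 15.3. The ratio was 9.84 within number 1 and 51.8 within number 2. The log2 fold change fitted by edgeR, Mkt1-HTP over control, was 4.25 ± 0.71 (SE, derived from the F statistic with the spread pooled over genes), and with replicate number added as a block it was 4.47. Over all 417 genes with 10 or more cDNAs, 13 (3.12%) were called higher in Mkt1-HTP and 7 (1.68%) higher in control libraries by the quasi-likelihood test of edgeR at a Benjamini-Hochberg adjusted p of 0.05. With library sizes set to mRNA cDNAs the numbers were 0 and 10, with the replicate block 5 and 2 and with DESeq2 10 and 2. met26 was chosen from this contrast, and nothing is read from its place among the 13.

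The Mkt1-HTP libraries held more mRNA, and among mRNA cDNAs alone the gap was smaller. Of these cDNAs met26 held 11.7% (11.1 to 12.2) and 10.7% (10.1 to 11.3) in Mkt1-HTP, whereas its share was 6.37% (3.496 to 11.3) and 1.47% (0.713 to 3.0) in control libraries. The mean share was 11.2% ± 0.69 in Mkt1-HTP and 3.92% ± 3.47 in control libraries (SD, n = 2 each), a ratio of 2.85, which was 1.83 in number 1 and 7.28 in number 2. With library sizes set to mRNA cDNAs the fitted log2 fold change was 1.62. In number 1 the intervals of both libraries overlapped, and in number 2 they did not. No measure of met26 mRNA in the cells entered, so a more abundant mRNA and more binding per mRNA cannot be told apart.

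By cDNAs per kb of mRNA, met26 was in place 2 among mRNAs in Mkt1-HTP replicate 1 with 498 and in place 3 in replicate 2 with 431. It was in place 6 in control replicate 1 with 3.60 and in place 47 in control replicate 2 with 2.52. A control count of 10 or 7 is too small to set such ranks firmly.

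**Figure D1:**
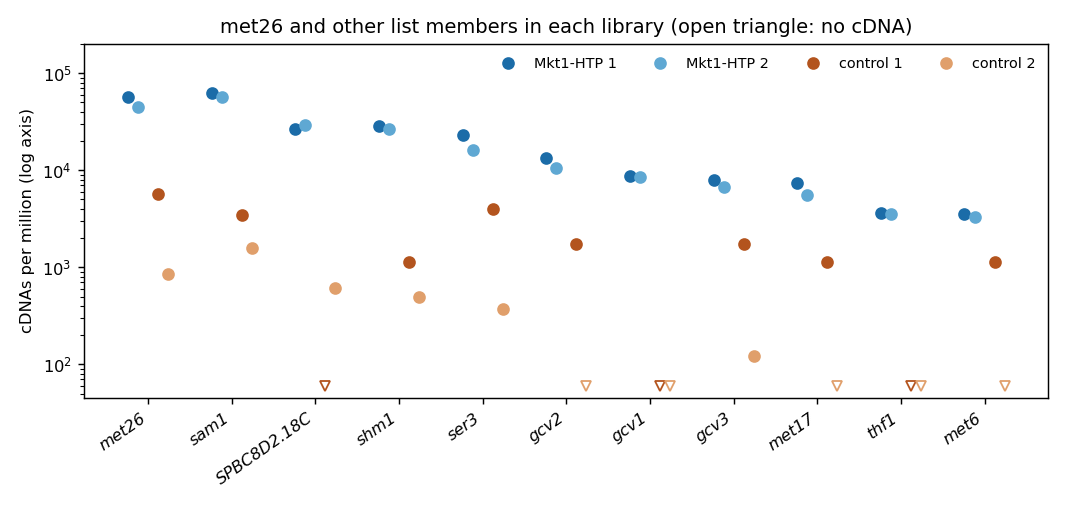
Level of met26 and of the other named members of the methionine and 1-carbon list in each library, as CPM on a log axis, with 1 point per library and an open triangle where a library held no cDNA. met26 stood at 56441 and 44500 CPM in Mkt1-HTP and at 5737 and 860 CPM in control libraries.

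The second question was what the deposited gene field made of these cDNAs, since many rows named a second gene. In Mkt1-HTP 839 of 1381 (60.8%, 58.2 to 63.3) and 644 of 1197 (53.8%, 51.0 to 56.6) rows named SPNCRNA.743 besides met26, and in control libraries 7 of 10 (70%, 39.7 to 89.2) and 3 of 7 (42.9%, 15.8 to 74.95) did. SPNCRNA.743 was the only further gene named in any row. Rows with both names were all those that reached position 1481083, where the annotation of SPNCRNA.743 begins, and no row that stopped short of it carried the second name, in any of the 4 libraries.

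The second name marked an overlap on the opposite strand. From the start of met26 to the end of SPNCRNA.743, the 4 libraries held 0, 0, 0 and 0 cDNAs on the minus strand. Nor was any cDNA on the plus strand found beyond the end of met26 within SPNCRNA.743. The rows with both names thus all lay on the strand of met26. The noncoding RNA itself was not detected at this depth.

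Counting only rows with 1 name left 542 and 553 cDNAs in Mkt1-HTP and 3 and 4 in control libraries. The rows left out that way lay almost wholly in the 3′ UTR, with 99.8% and 100% of their middles there in Mkt1-HTP. Of the rows naming met26 alone, 53.9% and 58.6% in Mkt1-HTP, against 33.3% and 25% in control libraries, had their middle there. The fitted log2 fold change was 4.69 with these rows alone.

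Both kinds of row had cDNAs of about the same length. The median was 53 and 47 nt for rows naming met26 alone in Mkt1-HTP and 54 and 50.5 nt for rows naming both. Deleted bases were seen in 9.78% and 26.4% of rows naming met26 alone in Mkt1-HTP, and in 10.3% and 18.8% of rows naming both. The share with a deletion was lower in rows naming both in replicate 2 only.

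A further question was where along the mRNA the cDNAs lay. In Mkt1-HTP, 81.8% (79.6 to 83.7) and 80.9% (78.5 to 83.0) had their middle in the 3′ UTR, against 80% (49.0 to 94.3) and 57.1% (25.0 to 84.2) in control libraries. The coding sequence held 246 and 219 cDNAs in Mkt1-HTP and 2 and 3 in control libraries, and the 5′ UTR 6 and 10 in Mkt1-HTP, against 0 and 0 control cDNAs. The control intervals are wide and take in both Mkt1-HTP values.

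The mean share in the 3′ UTR was 81.3% ± 0.62 in Mkt1-HTP and 68.6% ± 16.2 in control libraries (SD, n = 2 each). The difference of 12.7 percentage points had a two-sided exact permutation p of 0.333, the smallest that 2 libraries against 2 allow. It was 1.31 points without control replicate 2 and 24.2 without control replicate 1, and it turned to -4.25 when each cDNA was placed by its 3′ end. With 2 libraries in each group this test could not call a difference in place at any depth, and control cDNAs were few. Whether Mkt1-HTP and the control differ in place is therefore not concluded.

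The final 20% of the mRNA held the middle of all 10 and all 7 control cDNAs, against 93.5% (92.1 to 94.7) and 92.6% (91.0 to 94.0) of those in Mkt1-HTP. The control lower bounds are 72.2% and 64.6%. The position near the 3′ end was thus seen in both groups. Of the control cDNAs, 7 of 10 and 4 of 7 had the exact ends of a met26 cDNA of the same-numbered Mkt1-HTP library. Whether those came from that library through the shared index was not tested.

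Coverage rose along the coding sequence towards its end. Counted from the end of the coding sequence, each stretch of 250 nt between -1749 and -1000 nt held at most 7 cDNAs in a Mkt1-HTP library. The stretch from -999 to -750 held 17 and 18, the next 39 and 28, the next 38 and 26, and the last 250 nt 151 and 135. The 161 nt of 3′ UTR before SPNCRNA.743 then held 769 and 698, and the final 90 nt 360 and 270.

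Mean coverage was 254 and 209 cDNAs per base in the 3′ UTR of Mkt1-HTP and 6.65 and 4.71 in its coding sequence, a ratio of 38.3 and 44.4. In the control the means were 1.95 and 1.13 cDNAs per base in the 3′ UTR and 0.043 and 0.056 in the coding sequence, a ratio of 45.3 and 20.1. The ratio in control libraries rests on 17 cDNAs.

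**Figure D2:**
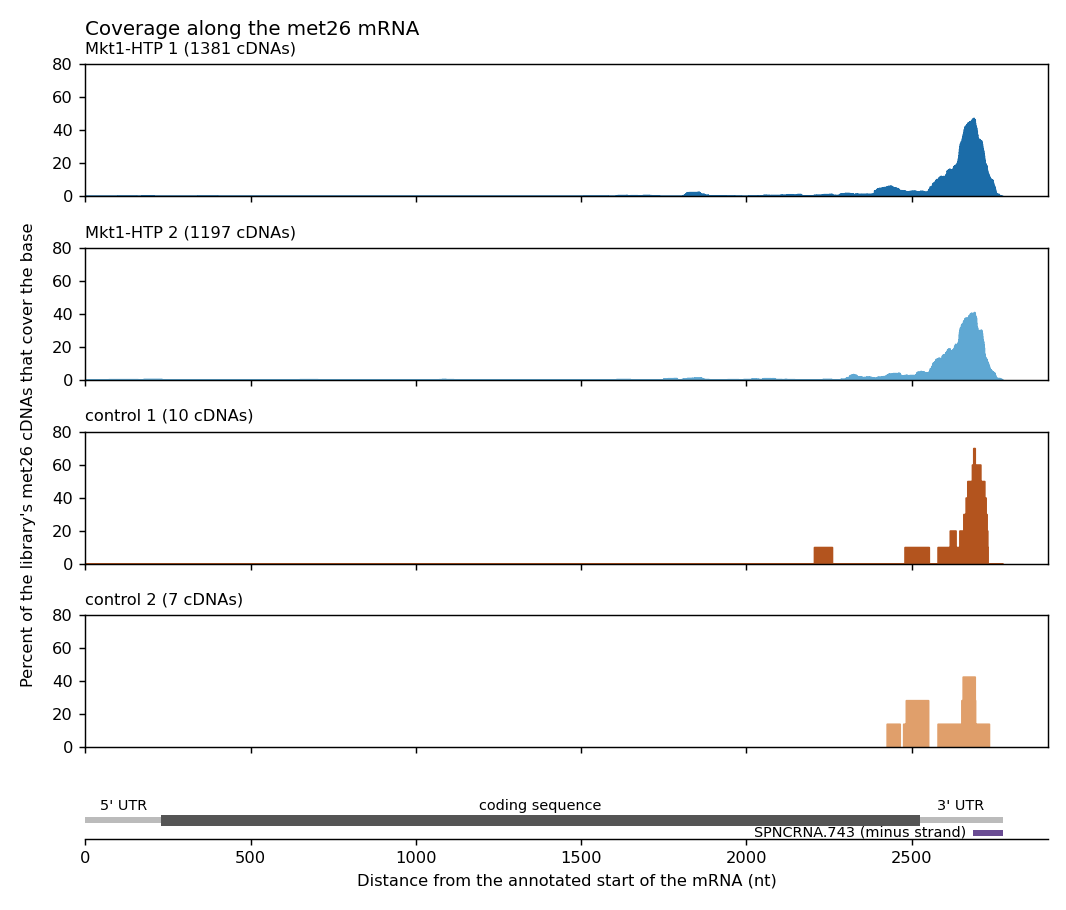
Coverage along the met26 mRNA in each library, as the percent of that library's met26 cDNAs that cover each base (vertical axis) against the distance from the annotated start of the mRNA in nt, above a map of the UTRs, the coding sequence and the overlap with SPNCRNA.743. In all 4 libraries the highest point lies in the 3′ UTR, at 47.3% and 41.0% in Mkt1-HTP and 70% and 42.9% in control libraries.

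The peak fell at almost the same base in both Mkt1-HTP libraries. It stood at 653 cDNAs, 164 nt after the coding sequence, in replicate 1 and at 491 cDNAs, 166 nt after it, in replicate 2. Coverage stayed near the peak, within a factor of 2 of it, from 119 to 195 nt in replicate 1 and from 107 to 194 nt in replicate 2. The highest control coverage was 7 cDNAs from 164 to 167 nt in replicate 1 and 3 cDNAs from 132 to 167 nt in replicate 2. The peak base lies in site A, 87 and 85 nt before the annotated end of the mRNA in Mkt1-HTP.

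The shapes of the 2 Mkt1-HTP profiles were alike. Over 111 bins of 25 nt the mean coverage correlated at 0.99 (Pearson, across positions of 1 mRNA, which share cDNAs and are not independent), at 0.98 over the 10 bins of the 3′ UTR and at 0.88 over the 100 bins before the end of the coding sequence. Control replicate 1 correlated with the Mkt1-HTP libraries at 0.92 and 0.90 over all bins and control replicate 2 at 0.77 and 0.79. Over the bins before the end of the coding sequence these values were 0.20 and 0.18 for control replicate 1 and 0.59 and 0.64 for control replicate 2.

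The ends of the cDNAs were spread out, and most lay outside the 11 nt stretches that held the largest numbers. In Mkt1-HTP, 217 and 170 cDNAs began between 119 and 129 nt after the coding sequence, and the most frequent first base, at 120 nt, had 29 and 34. The last bases of 272 and 208 cDNAs lay between 166 and 176 nt, and those of another 204 and 203 between 187 and 197 nt. In the control 1 and 1 cDNAs began in the first of these stretches, and 1 and 2 ended in the next and 1 and 0 in the last. The median length was 54 and 48 nt in Mkt1-HTP and 54.5 and 59 nt in control libraries, and 17 and 15 Mkt1-HTP cDNAs were longer than 150 nt, up to 690 nt. No cDNA of replicate 1 passed the annotated end of the gene, and 3 of replicate 2 did, with the farthest 1 nt beyond it.

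Many cDNAs were near copies of each other. Of the 1381 and 1197 cDNAs in Mkt1-HTP, 68 and 95 repeated both ends of another and differed at most in deletions. With cDNAs whose ends both lay within 2 nt of one already kept counted once, 487 and 413 remained in Mkt1-HTP, against 10 and 7 in control libraries, and the fitted log2 fold change was 3.02. The Mkt1-HTP replicates shared 258 exact intervals, 19.6% of the 1313 of replicate 1 and 23.4% of the 1102 of replicate 2.

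Several control cDNAs had the exact ends of a Mkt1-HTP cDNA. In control replicate 1, 7 of 10 matched a met26 cDNA of Mkt1-HTP replicate 1 and 3 matched one of replicate 2. In control replicate 2, 4 of 7 matched one of Mkt1-HTP replicate 2 and 3 one of replicate 1. Over the other mRNAs, 28 of 147 and 28 of 470 control cDNAs had the ends of a cDNA of the same-numbered Mkt1-HTP library. met26 is far more densely covered than most of those mRNAs, and whether the matching control cDNAs came from the Mkt1-HTP library through the shared index or from the control cells was not tested. Without them the fitted log2 fold change of met26 was 5.61, with 3 and 3 control cDNAs left.

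The fourth question was which bases were deleted. At least 1 deleted base was recorded in 139 of 1381 (10.1%, 8.59 to 11.8) and 267 of 1197 (22.3%, 20.04 to 24.8) met26 cDNAs in Mkt1-HTP, against 0 of 10 (0%, up to 27.8) and 2 of 7 (28.6%, 8.22 to 64.1) in control libraries. The means were 16.2% ± 8.66 in Mkt1-HTP and 14.3% ± 20.2 in control libraries (SD, n = 2 each), a difference of 1.90 percentage points (two-sided exact permutation p = 1). The sign of this difference turned with the library left out, so no direction is given.

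The share with a deletion was higher in number 2 than in number 1 in both groups, for met26 and for the other classes of RNA looked at. For the other mRNAs it was 22.0% and 33.9% in Mkt1-HTP, against 8.16% and 27.2% in control libraries, and for rRNA 13.8% and 28.2% in Mkt1-HTP, against 13.5% and 29.2% of control cDNAs. SPBC8D2.18c, the adenosylhomocysteinase mRNA, had a deletion in all 651 and 781 of its Mkt1-HTP cDNAs and in all 5 of control replicate 2. Without it the share for other mRNAs was 16.8% and 28.3% in Mkt1-HTP, against 8.16% and 26.5% of control cDNAs. Among 15 other mRNAs with 50 or more cDNAs in both Mkt1-HTP libraries, 13 had a higher share in replicate 2. Their median was 15.1% and 29.2%, and 5 and 3 of them had a lower share than met26.

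**Figure D3:**
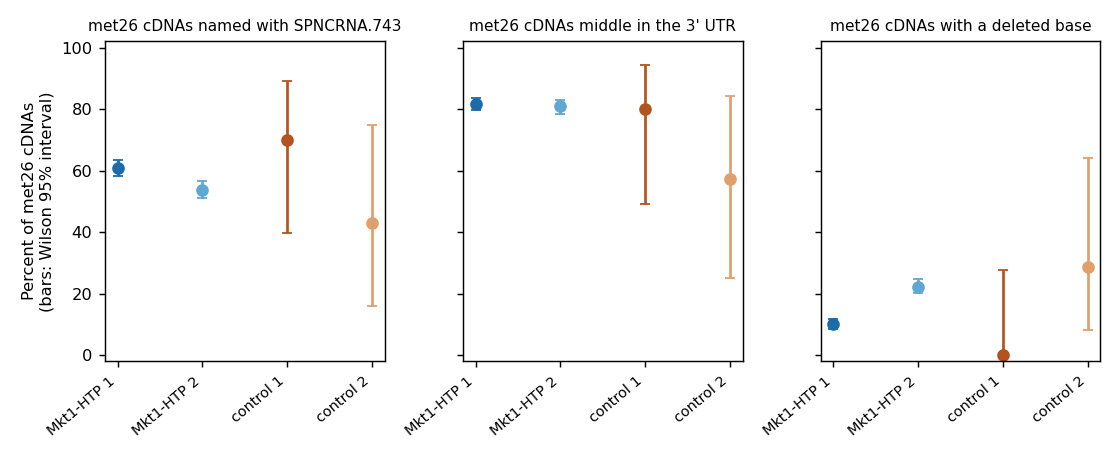
Percent of met26 cDNAs named with SPNCRNA.743 (left), with their middle in the 3′ UTR (centre) and with a deleted base (right), for each library, with Wilson 95% intervals. The shares in the 3′ UTR were 81.8% and 80.9% in Mkt1-HTP and 80% and 57.1% in control libraries, whose intervals span most of the axis.

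Deletions were spread over many bases. The Mkt1-HTP libraries held 185 and 453 deleted bases at 56 and 146 positions. Of the 172 positions deleted in either, 30 were deleted in both and 9 at least 3 times in both. U made up 51.9% and 49.0% of the deleted bases, while 35.7% and 35.7% of the bases covered by the cDNAs were U. The 3′ UTR held 159 of the 185 and 330 of the 453.

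The stretch of 20 nt that begins at the most often deleted base, 1481081 to 1481100, all within site A, was picked on the deletions pooled over both Mkt1-HTP libraries, and such numbers rise with coverage. It held 76 and 110 deletions, or 41.1% and 24.3% of all in the Mkt1-HTP libraries. Per 1000 covered bases this stretch had 6.57 and 12.7 deletions, the 3′ UTR before it 1.52 and 5.66 and the 3′ UTR after it 1.78 and 2.39, while the coding sequence had 1.705 and 9.24. The 5′ UTR had 0 and 33.5, from 0 and 23 deletions over 233 and 687 covered bases, so in replicate 2 its rate was above that of the stretch. In the control 5 and 1 cDNAs spanned the whole stretch, and none had a deletion there.

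The most often deleted base was at 1481081, 160 nt after the coding sequence. It is the first G of a run of 3, and which G of the run was lost cannot be told. It was missing from 26 of 644 covering cDNAs (4.04%, 2.77 to 5.85) and 23 of 481 (4.78%, 3.21 to 7.07) in Mkt1-HTP, a mean of 4.41% ± 0.53 (SD, n = 2), against 0 of 6 and 0 of 3 in control libraries. The control intervals reach 39.0% and 56.1%, so a share as high as in Mkt1-HTP could have been missed there. Of the rows naming met26 alone, 9 and 4 covered this base in Mkt1-HTP and none lacked it. Such rows stop before SPNCRNA.743, so these ended on this base or the next and could hardly show its loss. Nothing is read from them.

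A second group lay 173 to 178 nt after the coding sequence. The A at 1481094 was missing from 11 of 544 and 21 of 388 covering cDNAs in Mkt1-HTP (2.02% and 5.41%), and the U next to it, at 1481095, from 10 of 519 and 18 of 380 (1.93% and 4.74%). In 10 of the 11 and 18 of the 21 both were lost together, as 1 AU unit of an AU repeat, so the place within the repeat cannot be told. The U at 1481099, which begins a run of 4, was missing from 6 of 471 (1.27%, 0.585 to 2.75) and 28 of 354 (7.91%, 5.53 to 11.2). For this base the intervals of the replicates did not overlap, though they count near copies as separate cDNAs. In replicate 2, 14 of the 28 also lacked the next U of the run, and in replicate 1, 0 of the 6 did. In the control these bases were covered by 6 and 1 cDNAs and never lost.

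In site B, the U at 1481030, 109 nt after the coding sequence and the first of a run of 3, was missing from 7 of 256 (2.73%, 1.33 to 5.54) and 13 of 260 (5.0%, 2.95 to 8.37) in Mkt1-HTP. It was covered by 2 and 1 control cDNAs and lost in neither library. These 5 bases together held 163 of the 638 deletions in Mkt1-HTP, or 25.5%.

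Some bases outside these 5 were lost from a larger share of fewer cDNAs. The U at 1480977, 56 nt after the coding sequence, was missing from 10 of 142 (7.04%, 3.87 to 12.5) and 7 of 153 (4.58%, 2.23 to 9.14) in Mkt1-HTP, the largest share in replicate 1 among bases with 100 or more cDNAs over them. It was covered by 1 and 1 control cDNAs and lost in neither library. In site C, the A at 1480911, 10 nt before the end of the coding sequence, was missing from 4 of 39 (10.3%, 4.06 to 23.6) and 14 of 42 (33.3%, 21.0 to 48.4) in Mkt1-HTP, and from 0 of 1 and 2 of 2 in control libraries. These were the only deletions among the 17 control cDNAs of met26. Of the 2 control cDNAs that carried it, 1 had the exact ends of a cDNA in Mkt1-HTP replicate 2. In site D, the U at 1480236 was missing from 11 of 32 (34.4%, 20.4 to 51.7) and 3 of 14 (21.4%, 7.57 to 47.6), with no control cDNA over it. The bases at 1480977, 1480911 and 1480236 begin runs of 3, 2 and 3 equal bases, and which base of a run was lost cannot be told. These bases, at 1480977 and in sites C and D, are named besides the 5 above because of these shares, after their values were seen.

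**Figure D4:**
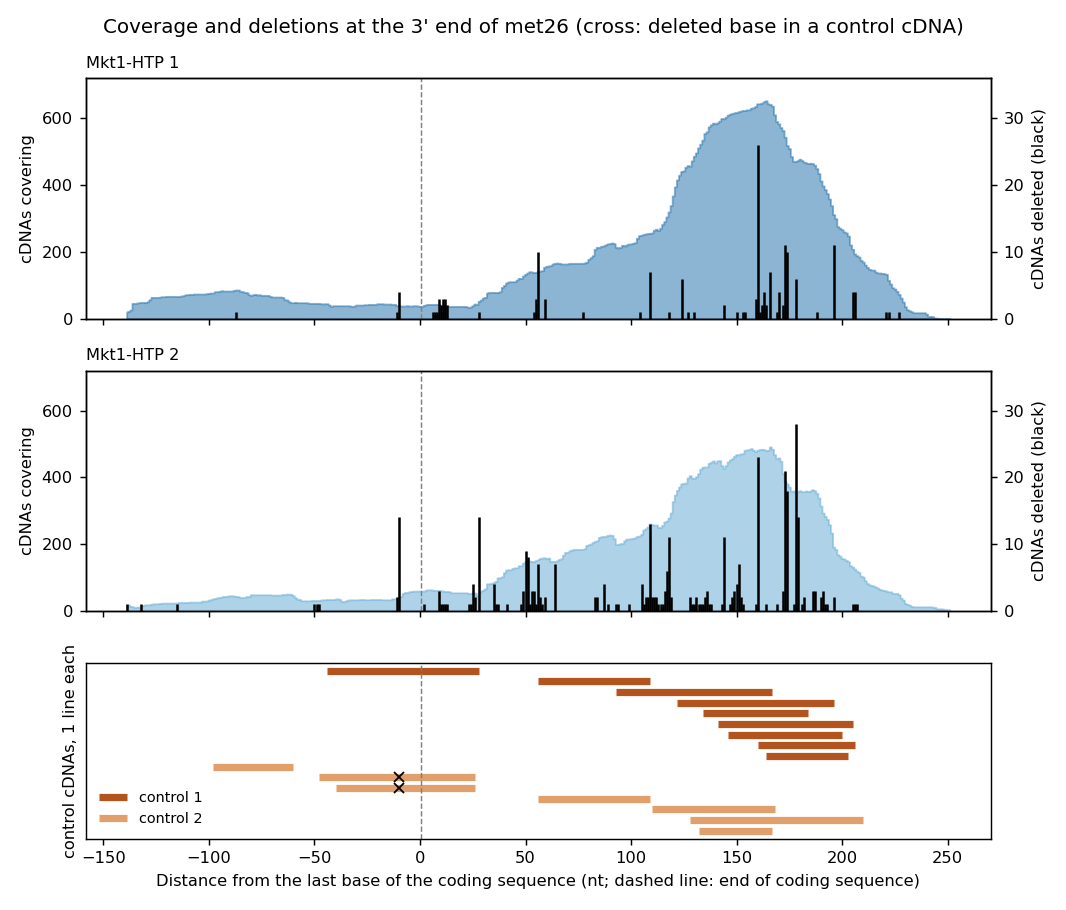
Coverage (shaded, left axis, cDNAs per base) and deletions (black lines, right axis, cDNAs that lack the base) at the 3′ end of met26 in both Mkt1-HTP libraries, and 16 of the 17 control cDNAs as 1 line each with a cross at a deleted base, against the distance from the end of the coding sequence in nt. Coverage is highest at 164 and 166 nt, and the most often lost base, with 26 and 23 deletions, lies at 160 nt.

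Compared with other well-covered mRNAs, met26 had a smaller part of its cDNAs in the 3′ UTR than most. The median share of the 15 other mRNAs with 50 or more cDNAs in both Mkt1-HTP libraries was 93.05% and 91.9%, with a range from 54.4% to 100% in replicate 1 and from 67.1% to 100% in replicate 2. Of them 12 and 10 had a higher share than the 81.8% and 80.9% of met26. The lengths of their 3′ UTRs differ, and this order was not tested.

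The other genes of the pathway were taken from a list of 23 members, met26 included, which was drawn up with results of these libraries known. Of the 23, 13 had the 10 cDNAs needed for a test, and a gene that reaches this number mainly through the deeper Mkt1-HTP libraries is favoured there. Besides met26, 9 of 12 tested members were called higher in Mkt1-HTP and 0 higher in control libraries, beside 3.12% and 1.68% of all tested genes. The 9 include gcv1 and thf1, which had no control cDNA. Of the 9, only sam1 and ser3 had 10 cDNAs in the control libraries. The others entered the test through their Mkt1-HTP cDNAs, so a call in the other direction was hardly possible for them. With met26, 10 of the 13 genes behind the 3.12% are list members, so the shares are not independent and the count is a description. The median fitted log2 fold change was 4.74 for the list and 4.78 for all tested genes. With genes absent from a group set at a floor of 3 counts over that group, the median fold was 11.9 for the list and 1.07 for all tested genes. Of the 417 tested genes 248 had no control cDNA, so the value for all genes is set by the floor and the minimum of 10 cDNAs and is no measured fold, and nothing is read from the gap. Of all cDNAs the list took up 24.4% and 21.3% in Mkt1-HTP, against 2.01% and 0.454% in control libraries, and met26 made up 23.2% and 20.9% of the list's cDNAs in Mkt1-HTP and 28.6% and 18.9% of them in control libraries.

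In the methionine cycle, sam1, which encodes the S-adenosylmethionine synthetase that uses the product of met26, had 1535 and 1544 Mkt1-HTP cDNAs, against 6 and 13 control cDNAs. SPBC8D2.18c, the adenosylhomocysteinase that returns homocysteine to met26, had 651 and 781 Mkt1-HTP cDNAs, against 0 and 5 control cDNAs. By edgeR, sam1 was higher by 4.74 ± 0.70 on the log2 scale (SE, adjusted p = 8.2e-09) and SPBC8D2.18c by 5.89 ± 0.92 (SE). No p is given for SPBC8D2.18c, which reached the minimum number of cDNAs only with those of Mkt1-HTP. ado1, encoding adenosine kinase, had 0 and 1 cDNAs in Mkt1-HTP and none in control libraries and was not tested.

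The enzymes that supply the methylated folate were unevenly recovered. shm1, a serine hydroxymethyltransferase, had 705 and 708 Mkt1-HTP cDNAs, against 2 and 4 control cDNAs, a log2 fold change of 5.35 ± 0.90 (SE, edgeR). Its relative shm2 had none in any library. thf1, of the folate 1-carbon part of the list, had 89 and 96 Mkt1-HTP cDNAs, against 0 and 0 control cDNAs, at least 11.9-fold higher in Mkt1-HTP against the floor of 303 CPM. It passed the minimum of 10 cDNAs through Mkt1-HTP alone, as gcv1, met9 and sua1 did. Of the tested members besides met26, only sam1 and ser3 reached the minimum in the control libraries by themselves. No p is given for the others, and their calls do not allow for that. met9 encodes a methylenetetrahydrofolate reductase, which makes the methyl donor of met26. It had 10 and 29 Mkt1-HTP cDNAs, against 0 and 0 control cDNAs, and was not called. met11, another such reductase, had 0 and 1 Mkt1-HTP cDNAs and no control cDNA.

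Of the genes that make homocysteine from sulfate and homoserine, 3 of 10 were tested. met17, homocysteine synthase, had 179 and 150 Mkt1-HTP cDNAs, against 2 and 0 control cDNAs. It was called higher, by a log2 fold change of 4.49 ± 1.29 (SE, edgeR). met6, homoserine O-acetyltransferase, had 86 and 89 Mkt1-HTP cDNAs, against 2 and 0 control cDNAs, and was not called. Both met17 and met6 reached the minimum number of cDNAs only with those of Mkt1-HTP, so no p is given. sua1, ATP sulfurylase, had 14 and 4 Mkt1-HTP cDNAs, against 0 and 0 control cDNAs, and was not called. The other 7 had at most 5 cDNAs in any library.

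The glycine cleavage and serine genes were all tested and all called, gcv1 without a control cDNA, beside 3.12% of all tested genes. They belong to a list drawn up with results of these libraries known, so this is a description. gcv1, gcv2 and gcv3 encode subunits of the glycine cleavage complex, which breaks down glycine and passes a single carbon to folate. gcv2 had 324 and 281 Mkt1-HTP cDNAs, against 3 and 0 control cDNAs, gcv1 215 and 229 Mkt1-HTP cDNAs, against 0 and 0 control cDNAs, and gcv3 195 and 181 Mkt1-HTP cDNAs, against 3 and 1 control cDNAs. ser3, of serine synthesis, had 566 and 432 Mkt1-HTP cDNAs, against 7 and 3 control cDNAs. The log2 fold change was 4.70 ± 1.10 for gcv2, 3.65 ± 1.13 for gcv3 and 3.59 ± 0.86 for ser3 (SE). By CPM, gcv1 was at least 28.5-fold higher in Mkt1-HTP. The edgeR adjusted p was 0.0015 for ser3. gcv1, gcv2 and gcv3 reached the minimum number of cDNAs only with those of Mkt1-HTP, so no p is given for them.

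With the replicate number as a block, 4 members other than met26 were called higher in place of 9. They were shm1, SPBC8D2.18c, sam1 and gcv1, the last without a control cDNA. The folds given above for the members are scaled to all cDNAs. Messenger RNA made up 48.4% and 41.7% of these in Mkt1-HTP, against 9.01% and 5.86% in control libraries. Among mRNA cDNAs the folds and lower bounds of the members are therefore smaller. With library sizes set to mRNA cDNAs, 0 members other than met26 were called higher. Without Mkt1-HTP replicate 1 the number was 0 and without replicate 2 it was 1.

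The genes whose levels were most like those of met26 were found as the smallest mean absolute difference in log2(CPM + 50) over the 4 libraries, among 416 other tested genes with a median difference of 6.12. sam1 came first, at 0.53, followed by ser3 at 1.10 and shm1 at 1.19. The next were the rRNA copies SPRRNA.45 at 1.79 and SPRRNA.43 at 1.85, which were lower than met26 in both Mkt1-HTP libraries and higher in control replicate 2, and which share reads with near-identical copies. The likeness was chosen on the same counts that chose met26 and is a description.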

How the data were processed

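Per the file headers and the study's methods, the authors split paired-end reads by barcode (pyCRAC), cut adapters off (Flexbar), filtered out PCR duplicates and tRNA reads (STAR 2.7.1a), aligned the rest to ASM294v2 (Novoalign 3.09.02) and ran pyReadCounters (Counters 1.4.4). The deposited counts are 1 for every row, and a row is a cDNA with its ends and its deleted bases, so a gene's number is how many different cDNAs it had. Mapped cDNAs in the headers numbered 544192 and 483073 (Mkt1-HTP), and 27996 and 135763 (control).

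Each cDNA went to the gene of its gene field that RefSeq places on its strand, and to none where several were possible. RefSeq's nuclear chromosomes (ASM294v3) were used for names and sequence after a check against the files: 98.0% of 2552 identifiers were found and 99.7% of 55938 assigned cDNAs overlapped their gene. Genes with 10 or more cDNAs (417) were tested, two-sided, with edgeR 4.0.16 in R 4.3.3 (glmQLFit and glmQLFTest, all distinct cDNAs as library size, common dispersion 0.931) at a Benjamini-Hochberg adjusted p of 0.05, with DESeq2 1.42.0 as an alternative. The edgeR script was tested on simulated data. Its p-values measure the spread between these libraries, pooled over genes. Shares, intervals and exact tests were computed in Python 3.11.15 with scipy 1.17.1.

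The rule named met26, any gene the rows name with it, list members with 20 or more cDNAs in each Mkt1-HTP library, the 5 genes most like met26 and its 5 most often deleted bases. ado1, met9, met11, shm2 and sua1 fall outside it and are named only to account for the list. The members and lists were chosen with earlier results of these data known. A shared sequencing index pairs the libraries by number. Whether libraries of 1 number deviate together from the means of their groups was checked by a correlation, which was 0.067 across the 417 genes, and -0.044 across the 27 that had at least 10 cDNAs in control libraries. The labels conflict on which adapter goes with which number, but either reading gives the same pairs.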

Additional observations from a re-analysis of the deposited data

How the results depend on the processing

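The alternatives changed library sizes, filter, tool, gene assignment, counting, pairing and the libraries kept. The fitted log2 fold change of met26 kept its sign in all 12 and ran from 3.14 to 5.86 with 1 library left out and from 1.62, with library sizes set to mRNA cDNAs, to 5.61. The median of all genes moved by -0.22 with that scaling, -2.80 with DESeq2, -0.80 with the replicate block and -2.97 with near-identical cDNAs counted once. In the main fit 248 of 417 genes had no control cDNA, so the median is no measured fold. Its moves are not set against those of met26. Genes called higher in Mkt1-HTP numbered 13, against 0 with mRNA library sizes, 5 with the replicate block and 0 to 26 with 1 library left out (0 and 1 without Mkt1-HTP replicates 1 and 2, 26 without control replicate 1). Genes called higher in the control numbered 7, against 2 without a filter, 2 with DESeq2, 2 with the replicate block, 3 with near-identical cDNAs counted once and 3 to 6 with 1 library left out. List members called higher, with met26, which was chosen on these counts, numbered 10, against 0 with mRNA library sizes, 5 with the replicate block and 0 to 11 with 1 library left out. With 1 library left out, the lone library of its group is assumed to vary like the other group.

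The difference in 3′ UTR share was 12.7 percentage points, which the replicate block cannot change, as each number holds 1 library of each group. It was 1.31 to 24.2 with 1 library left out. It was -4.25 when cDNAs were placed by their 3′ end, since control cDNAs across the end of the coding sequence then count to the 3′ UTR. The difference in the share with a deletion was 1.90 points, which the replicate block cannot change either. It was -6.91 over rows naming met26 alone and -2.58 with near-identical cDNAs counted once. Such counting keeps the copy that is first by start, then by end, then by fewest deletions. The difference was -0.48 without control cDNAs shared with Mkt1-HTP, and -12.4 to 16.2 with 1 library left out. The share of cDNAs that lack the most often deleted base was 4.41%, and 4.04 to 4.78% in single libraries. It was 0 over rows naming met26 alone, of which 9 and 4 cover that base. These end on that base or the next, so the 0 was set by the choice of rows and nothing is read from it. With 10 and 7 control cDNAs and 2 libraries in each group, depth and the number of libraries limit every comparison of place and deletion with the control.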
